A study of Mus musculus with 22 samples.

Results

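T cells of solid organs were compared between mice with deletion of the sodium leak channel gene Nalcn and mice without it, by single-cell RNA profiles. T cells were taken from pooled organ libraries by rule. A barcode, which stands for a droplet, needed at least 200 detected genes and at most 25% mitochondrial unique molecular identifiers (UMIs, each a captured transcript). It also needed a UMI of at least 2 of the 4 genes Cd3d, Cd3e, Cd3g and Trbc2, and none of Cd79a (B cells), C1qa (macrophages) or S100a8 (neutrophils). The members were thus chosen by the measured UMIs of these 7 genes. They are described without a test of their own, although the 4 T genes stayed among all genes in the gene-by-gene fit. The rule found 5402 T barcodes among 72758 passing barcodes of 9 libraries, with 3485 of them in wt libraries and 1917 in the libraries with deletion. The whole series of 22 libraries held 95843 passing barcodes.

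All mice carried Prom1-CreERT2, a tamoxifen-inducible Cre recombinase driven by the Prom1 promoter, and Rosa26ZSG, a ZsGreen lineage tag. The 5 wt libraries carried no Nalcn deletion and came from males of 571, 571 and 608 days and females of 611 and 654 days. The 2 het libraries (Nalcn-het) came from males of 551 days, and the 2 null libraries (Nalcn-null) from a male of 552 days and a female of 611 days. The latter is null by its strain label, since its title names no genotype. The het and null libraries were pooled as the deleted side. Each library held cells of 5 organs marked with hashtag antibodies, namely kidney, liver, lung, stomach and either epididymis (males) or uterus (females). The organ of each barcode was not analysed here. Because Cre followed Prom1, T cells themselves need not have been recombined. Their barcodes held 2 Nalcn UMIs in all, both in wt libraries, so the deletion could not be checked in them, and 43 Prom1 UMIs.

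T cells recognise antigen through a receptor built from alpha and beta chains (Trac, Trbc1, Trbc2) or gamma and delta chains (Tcrg-C genes, Trdc), which signals through the Cd3 subunits. Helper T cells carry Cd4, cytotoxic T cells carry Cd8a, and regulatory T cells, which restrain the others, use the transcription factor Foxp3. Tissues also hold resident T cells, among them gamma delta T cells that release interleukin 17A (Il17a) at barrier surfaces.

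Library depth differed widely. T barcodes per library ran from 27 to 1460 in wt and from 299 to 754 in deleted libraries, and their summed UMIs from 216030 to 4595794 in all 9. Their median UMIs per barcode were 1331 to 7305 in wt and 1046 to 2325.5 in deleted libraries, and median mitochondrial shares 10.3 to 19.0% and 11.8 to 16.6%. Wt replicate 5 stood apart with 287 passing barcodes and 27 T barcodes. Null replicate 3, labelled female, held 1876 Xist UMIs in T barcodes but also 37 UMIs of Y-linked genes, and its epididymis marker genes summed to 7411 UMIs per 1000000 (CPM), against 0 to 5.24 CPM in the wt female libraries. The Y-linked UMIs were 33.7 CPM there and 236 to 304 CPM in the male libraries. The other libraries matched their labelled sex. No pair of libraries shared more than 0.90% of the smaller library's barcodes or more than 1 T barcode. The labels name no animals, and wt replicates 1 and 2, like het replicates 1 and 2, share age and sex, so p-values measure the spread between libraries and part of it may be technical.

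The members carried T cell genes that the rule did not use. Trac summed to 113 to 303 CPM in T barcodes against 6.09 to 33.1 CPM in the other passing barcodes, without further scaling. For Lck, the kinase that starts receptor signalling, the ranges were 90.1 to 212 and 6.52 to 27.4 CPM, and for Thy1 181 to 467 and 8.76 to 33.2 CPM. Trac, Trbc1, Cd247, Cd2, Cd5, Lck and Thy1 were each higher in T barcodes in 9 of 9 libraries. Exactly 2 of the 4 rule genes were found in 2618 barcodes, just inside the rule, and 3610 barcodes with exactly 1 of them lay just outside. Another 2135 barcodes met the rule for T genes but carried Cd79a, C1qa or S100a8. Of these, 1900 were in wt libraries, with 1270 in wt replicate 2 alone. The rule genes are given as a description. Cd3e stood at 226 to 521 CPM in wt and 301 to 554 CPM in deleted libraries, and Trbc2 at 295 to 696 and 571 to 783 CPM. Ptprc, the pan-leukocyte surface gene, stood at 557 to 1208 and 538 to 984 CPM.

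The first question was whether the number or kind of T cells differed. T barcodes made up 7.98, 6.95, 4.59, 11.2 and 9.41% of passing barcodes in wt replicates 1 to 5, 10.1 and 7.71% in het replicates 1 and 2, and 3.43 and 5.89% in null replicates 2 and 3. Both sides spanned nearly the same range. The means were 8.02 ± 2.49% (SD, n = 5) in wt and 6.77 ± 2.80% (SD, n = 4) in deleted libraries (difference -1.25 percentage points, exact two-sided permutation p = 0.476, 0.698 after adjustment over 8 shares). With each passing barcode thinned to 1000 UMIs before the rule was applied, the means were 4.93 and 4.70% (difference -0.233 points, exact permutation p = 0.841). The smallest p that this exact permutation test can give with 5 and 4 libraries is 0.0159. A single share at that p would stay above 0.05 after adjustment over 8 shares, so no share could pass alone.

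To compare shares of T barcodes with a given transcript, each barcode was thinned to 1000 UMIs, which left out 428 wt and 285 deleted T barcodes that were shallower. Cd4 was found in 4.50, 5.60, 4.23, 12.9 and 7.69% of the thinned T barcodes of wt replicates 1 to 5, in 3.81 and 7.26% of the het and in 3.11 and 2.86% of the null barcodes. Wt replicate 4 was the highest, and the sides overlapped through het replicate 2. The means were 6.99 ± 3.58% (SD, n = 5) and 4.26 ± 2.04% (SD, n = 4). The exact two-sided permutation test gave p = 0.206 (adjusted 0.667). Without thinning they were 15.2 and 6.50% (exact permutation p = 0.0476, adjusted 0.381).

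Cd8a, at 1000 UMIs, was found in 7.72 ± 4.72% (SD, n = 5) of wt and 8.4 ± 3.16% (SD, n = 4) of deleted T barcodes (exact permutation p = 0.841, adjusted 0.841), and without thinning in 17 and 13.4%. Foxp3 was found in 0.960 ± 0.774% (SD, n = 5) and 0.80 ± 0.137% (SD, n = 4) (exact permutation p = 0.698, adjusted 0.798), and without thinning in 3.45 and 1.55%. Foxp3 counts were small, with 46 of 3057 wt and 14 of 1632 deleted T barcodes. In wt replicate 5 it was found in 0 of 26. This allows a share of up to 11.5% by the limit of 3 divided by the number of barcodes, and 13.2% by the exact 95% interval. Among Cd4 barcodes alone the Foxp3 share was 0.853 ± 1.28% (SD, n = 5) and 5.36 ± 6.84% (SD, n = 4), which rests on 5 wt and 4 deleted barcodes (exact permutation p = 0.333, adjusted 0.667). No difference in the Foxp3 share was detected, by a test that no share could pass alone after adjustment.

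Ccr7, the receptor that guides naive T cells to lymph nodes, was found in 8.54 ± 2.66% (SD, n = 5) and 11 ± 3.32% (SD, n = 4) of thinned T barcodes, the cytotoxic granzyme gene Gzmk in 6.15 ± 3.67% and 4.83 ± 1.90%, and Trdc in 10.1 ± 7.25% and 5.41 ± 2.72%. Their exact permutation p were 0.317, 0.524 and 0.302 (adjusted 0.667, 0.698 and 0.667). In the libraries labelled male the Trdc shares were 9.42, 18.5 and 16.4% in wt and 6.81, 8.47 and 2.48% in deleted libraries, without overlap (difference -8.88 points, exact permutation p = 0.100, the smallest that 3 against 3 allows, adjusted 0.80). Unthinned means were 15.2 and 14.9% for Ccr7, 14.9 and 7.20% for Gzmk, and 14.5 and 6.57% for Trdc. As background, at 1000 UMIs B cell barcodes (medians 2421 and 1584 UMIs before thinning in wt and deleted libraries, against 1963 and 1686 in T barcodes) held Cd4 in 0.355 and 0.209%, Cd8a in 0.355 and 0%, Foxp3 in 0.0322 and 0%, Gzmk in 0.129 and 0%, and Trdc in 0.0645 and 0.104%. Endothelial barcodes (medians 2356.5 and 1964 UMIs) held Cd4 in 0.130 and 0.105% and Ccr7 in 1.01 and 0.838%. B cells use Ccr7 themselves, and 16.0 and 25.8% of their barcodes held it.

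**Figure D1:**
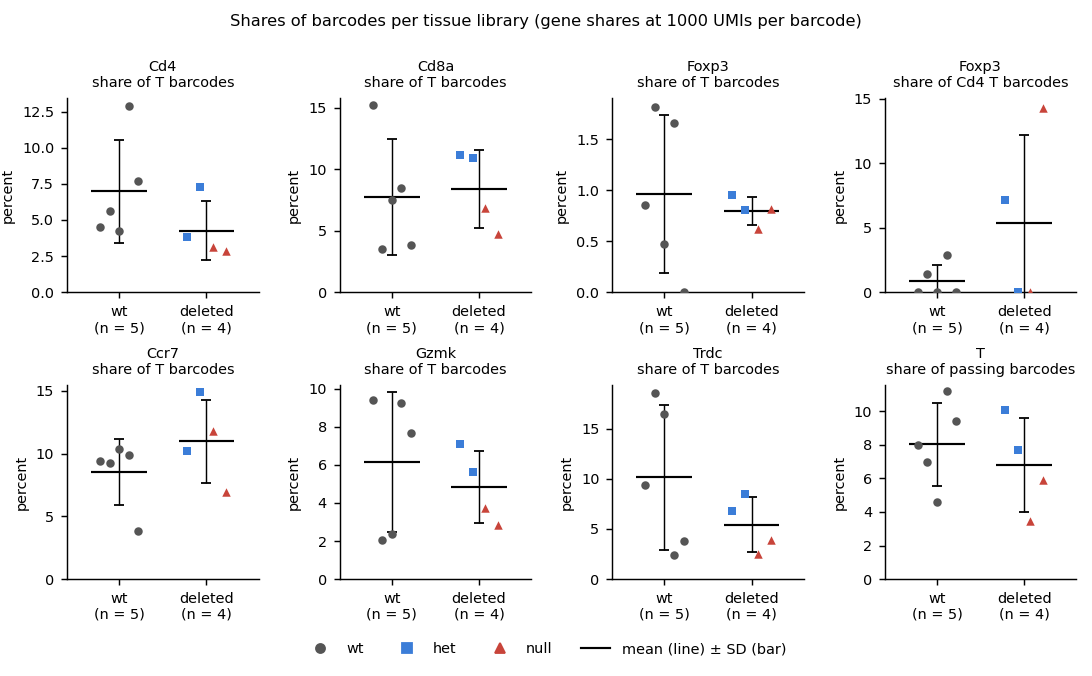
Percent of barcodes per tissue library for the 8 shares, with wt (5 libraries, grey circles) beside deleted (4 libraries, het blue squares and null red triangles); lines are means and bars are SD. In each of the 8 panels the libraries of both sides overlap, and the highest Cd4 share is wt replicate 4 at 12.9%.

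Expression was then compared gene by gene, with UMIs summed over the T barcodes of each library, so that libraries and not cells were the replicates. In such sums fewer cells of a type and less RNA per cell cannot be told apart. Of 9126 genes tested by the edgeR quasi-likelihood test with labelled sex as covariate, 0 (0%) passed an adjusted p of 0.05. At an unadjusted p under 0.05 there were 429 genes (4.7%), 220 higher and 209 lower on the deleted side. DESeq2 on the same sums called 24 genes (0.263%), 23 higher and 1 lower. It gave no adjusted p to part of the 9126 genes, among them Emp2, Il1r2, Zeb2, Havcr2 and Trdc. Its count is thus not over the same genes as that of edgeR. The share among genes with an adjusted p was above 0.263%. Without regard to a model, 204 genes (2.24%) had no overlap between the libraries of both sides, 123 (1.35%) higher and 81 (0.888%) lower in deleted libraries. The 10 genes with the smallest unadjusted p were Il17a, Cd200, Emp2, Socs3, Tnfsf14, Rbp4, Areg, Il1r2, Zeb2 and Rpl12, in that order, and they are given as values that did not pass.

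Il17a, the cytokine of type 17 T cells, led the comparison. It lies at chr1:20730905-20734496 on the plus strand of GRCm38 (the build also called mm10), where GENCODE vM21 annotates a protein-coding gene. Wt replicates 1 to 5 held 211, 812, 380, 43.8 and 295 CPM in T barcodes (scaled by TMM, as are all gene levels below unless stated), het replicates 1 and 2 held 9.62 and 29.2 CPM, and null replicates 2 and 3 held 2.58 and 9.58 CPM. The 4 deleted libraries lay under the lowest wt library, without overlap. The means were 349 ± 288 CPM (SD, n = 5) and 12.8 ± 11.5 CPM (SD, n = 4). The log2 difference was -4.82 ± 0.74 (SE), with an unadjusted p of 4.28e-05 and an adjusted p of 0.390 by edgeR, and -4.78 with an adjusted p of 5.59e-06 by DESeq2. It was the 1 gene that DESeq2 called lower. Over the alternatives its log2 difference ran from -5.43 to -3.89. Its adjusted p passed in edgeR without wt replicate 4 (0.0404), without a filter on low counts (6.21e-11) and with the replicate number as a block (0.0157). The block leaves wt replicates 4 and 5, each alone with its number, without weight in the difference. In the other edgeR alternatives Il17a did not pass. The lowest adjusted p among these was 0.0811, without wt replicate 1, and with age as covariate it was 0.510. Without null replicate 3, the labelled female with a few Y-linked UMIs, the log2 difference was -5.11 (adjusted p = 0.828), and with the libraries of equal age and sex summed it was -5.04 (adjusted p = 0.350).

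The share of barcodes with Il17a differed widely between wt libraries. The labelled males, wt replicates 1 to 3, lay above the labelled females, wt replicates 4 and 5. Of T barcodes, 56 of 474 (11.8%, exact 95% interval 9.05 to 15.1%) held it in wt replicate 1, 350 of 1267 (27.6%, 25.2 to 30.2%) in wt replicate 2 and 45 of 257 (17.5%, 13.1 to 22.7%) in wt replicate 3. In wt replicate 4 it was 17 of 1460 (1.16%, 0.680 to 1.86%), and in wt replicate 5 all 64 of its Il17a UMIs lay in 1 of 27 barcodes (3.70%, 0.0937 to 19.0%). These intervals, like the limits for a count of 0, cover counting error only.

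On the deleted side it was 15 of 754 (1.99%, 1.12 to 3.26%) and 3 of 312 (0.962%, 0.199 to 2.78%) in het, and 1 of 299 (0.334%, 0.00847 to 1.85%) and 8 of 552 (1.45%, 0.628 to 2.84%) in null libraries. The share in wt replicate 4 was thus within the range of the deleted libraries, although its level in CPM was above them. Among labelled females, null replicate 3 (1.45%) lay above wt replicate 4 (1.16%) and below wt replicate 5 (3.70%, 1 of 27 barcodes). At 1000 UMIs the shares were 1.2 to 21.6% in wt and 0.613 to 0.817% in deleted libraries. The background at that depth was 0.290 and 0% in B cell barcodes and 0.422 and 0.0349% in endothelial barcodes of wt and deleted libraries.

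Barcodes with Il17a often held Trdc, the constant segment of the delta chain. Of the 469 such wt barcodes 350 came from wt replicate 2, so the shares are given within libraries. In wt replicates 1 to 4 Trdc was found in 53.6, 49.4, 57.8 and 23.5% of the barcodes with Il17a, against 7.89, 17.8, 14.2 and 3.12% of the other T barcodes of the same library. Cxcr6, a receptor of tissue-resident lymphocytes, was found in 83.9, 71.4, 51.1 and 52.9%, against 44.5, 34.5, 36.3 and 9.29%. Both were thus more frequent beside Il17a in each of these 4 libraries. The 4 deleted libraries held 27 barcodes with Il17a in all, of which 13 (48.1%) held Trdc and 17 (63.0%) held Cxcr6, against 6.67 and 25.6% of their other T barcodes. Cd4 was found in 16.1 and 19.1% of the barcodes with Il17a in wt replicates 1 and 2, against 11.7 and 10.6% of their other T barcodes. In wt replicates 3 and 4 it was found in 0 of 45 and 0 of 17, against 8.02 and 18.4%. On the deleted side it was found in 0 of 27, against 6.93% of the other T barcodes. A count of 0 of 27 allows up to 11.1%, by the limit of 3 divided by the number of barcodes. These shares use all UMIs of each barcode, so barcodes with and without Il17a were not matched for depth. The same holds for Areg beside Il17a below. Such shares are descriptive and were not tested.

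No other tested gene of the gamma delta and type 17 list had a log2 difference of that size. Of its 14 genes, Il17a included, 12 were tested, 0 were called by edgeR, 4 lay above and 8 below a log2 difference of 0, and the median was -0.29 against -0.01 over all genes tested. The median of this list was -0.96 without null replicate 3, 0.00040 without null replicate 2 and -0.65 with age as covariate. Trdc stood at 156, 269, 276, 28.1 and 13.8 CPM in wt replicates 1 to 5 and at 118, 175, 23.2 and 60.3 CPM in het replicates 1 and 2 and null replicates 2 and 3. The wt libraries split into the males, at 156 CPM and above, and the females, at 28.1 CPM and below, and the deleted libraries spanned both (log2 difference -0.44 ± 0.54 (SE), adjusted p = 0.999 by edgeR). Without null replicate 3 the log2 difference of Trdc was -1.09, and without null replicate 2 it was 0.00040. Trdv4, a variable segment of the delta chain, stood at 0 to 75.2 and 2.58 to 19.2 CPM (log2 difference -1.33, unadjusted p = 0.0406, and -1.97 without null replicate 3). Il17f was found in 3 of 5 wt and 3 of 4 deleted libraries, at no more than 38.6 CPM, and was too low to be tested. Reads can be shared between the similar Tcrg-C genes, so their levels are uncertain.

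Areg encodes amphiregulin, a growth factor that T cells in tissue release during repair. It stood at 106, 484, 235, 56.9 and 281 CPM in wt replicates 1 to 5, at 47.6 and 27.3 CPM in het and at 41.2 and 47.9 CPM in null libraries. The sides did not overlap, but wt replicate 4 at 56.9 CPM lay close to the deleted libraries. The log2 difference was -2.45 ± 0.55 (SE), with an adjusted p of 0.839 by edgeR. Wt replicates 2, 3 and 5 held the highest levels of both Il17a and Areg. In wt replicate 5, 49 of the 61 Areg UMIs lay in 1 barcode, in wt replicate 3 58 of 150, and in wt replicate 1 52 of 211. Areg was found in 26.8, 29.7, 15.6 and 23.5% of the barcodes with Il17a in wt replicates 1 to 4 and in 3.83, 10.0, 8.02 and 5.68% of their other T barcodes, and on the deleted side in 2 of 27 (7.41%) and 4.44%.

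Cd200, a surface glycoprotein that dampens myeloid cells, stood at 51.8, 81.2, 89.3, 81.3 and 87.5 CPM in wt replicates 1 to 5, at 31.2 and 27.3 CPM in het and at 33.5 and 41.2 CPM in null libraries. The deleted libraries lay below each wt library. The log2 difference was -1.18 ± 0.21 (SE), with an unadjusted p of 0.000127 and an adjusted p of 0.447 by edgeR. In endothelial barcodes, which hold far more Cd200, it stood at 337 to 422 CPM in wt and 229 to 358 CPM in deleted libraries, without TMM scaling.

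Socs3, the feedback inhibitor of cytokine signalling through STAT3, was higher on the deleted side. It stood at 86.4, 80.3, 87.7, 75.7 and 46.1 CPM in wt replicates 1 to 5, at 195 and 138 CPM in het and at 157 and 131 CPM in null libraries, without overlap. The log2 difference was 0.98 ± 0.18 (SE), with an adjusted p of 0.447 by edgeR. A difference in the same direction was present outside T cells. Socs3 stood at 129 to 649 CPM in wt and 543 to 962 CPM in deleted endothelial barcodes, and at 49.8 to 105 and 69.4 to 156 CPM in B cell barcodes, without TMM scaling and with overlap in both.

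Tnfsf14 encodes LIGHT, a ligand of the tumour necrosis factor family made by activated T cells. It was low throughout, at 4.49 to 7.83 CPM in wt and 13.4 to 15.5 CPM in deleted libraries, without overlap (log2 difference 1.26 ± 0.28 (SE), adjusted p = 0.839 by edgeR). Il1r2, a decoy receptor for interleukin 1, stood at 7.54 to 56.2 CPM in wt and at 2.75 to 12.9 CPM in deleted libraries (log2 difference -2.87, and -2.16 with the replicate block). Zeb2, a transcription factor of effector T cells, stood at 84.9 to 217 and 60.4 to 94.8 CPM (log2 difference -1.0, and -1.60 without barcodes holding markers of some other cell types). For both the sides overlapped.

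Emp2 and Rbp4 are genes of other cell types. Emp2, a membrane protein of epithelium and endothelium, stood at 15.6 to 31.6 CPM in wt and 48.1 to 62.2 CPM in deleted T barcodes, without overlap (log2 difference 1.27 ± 0.23 (SE), adjusted p = 0.447 by edgeR). In barcodes with at least 3 of the 4 T genes the log2 difference of Emp2 was 0.44. In endothelial barcodes it stood at 137 to 310 and 381 to 658 CPM, again without overlap, and in B cell barcodes at 12.6 to 32.7 and 30.5 to 44.5 CPM, without TMM scaling. The 8 endothelial marker genes summed to 378 to 1101 CPM in wt and 776 to 972 CPM in deleted T barcodes, with a median log2 difference of 0.09, and the 6 general epithelial genes lay on the opposite side, at 152 to 1534 and 87.7 to 453 CPM, with a median of -1.11. A library of 610 days that is het by title and null by strain, and so entered no comparison, held Emp2 at 6.74 CPM and Socs3 at 76.9 CPM without TMM scaling. On that scale wt libraries held 15.7 to 30.7 and 46.3 to 87.1 CPM, and deleted libraries 45.7 to 59.3 and 125 to 185 CPM, so this library lay below the wt range for Emp2 and within it for Socs3.

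Rbp4, the plasma carrier of vitamin A that hepatocytes secrete, stood at 0 to 14.1 CPM in wt and 17.2 to 23.4 CPM in deleted T barcodes (log2 difference 2.37 ± 0.52 (SE), adjusted p = 0.839 by edgeR). The 7 hepatocyte marker genes (Alb and others) summed to 51.4 to 525 CPM in wt and 412 to 540 CPM in deleted T barcodes. Of the 6 that were tested 6 lay above 0, with a median log2 difference of 1.5, and 5 (83.3%) were higher at an unadjusted p under 0.05, against 2.41% of all genes tested. In B cell barcodes Alb stood at 8.19 to 223 CPM in wt and 170 to 351 CPM in deleted libraries, without TMM scaling. Wt replicate 3 was the wt library with the most of it, and without that library edgeR called Rbp4, Hpx and Ahsg, which are all liver genes. The part of liver RNA in these values was not tested.

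**Figure D2:**
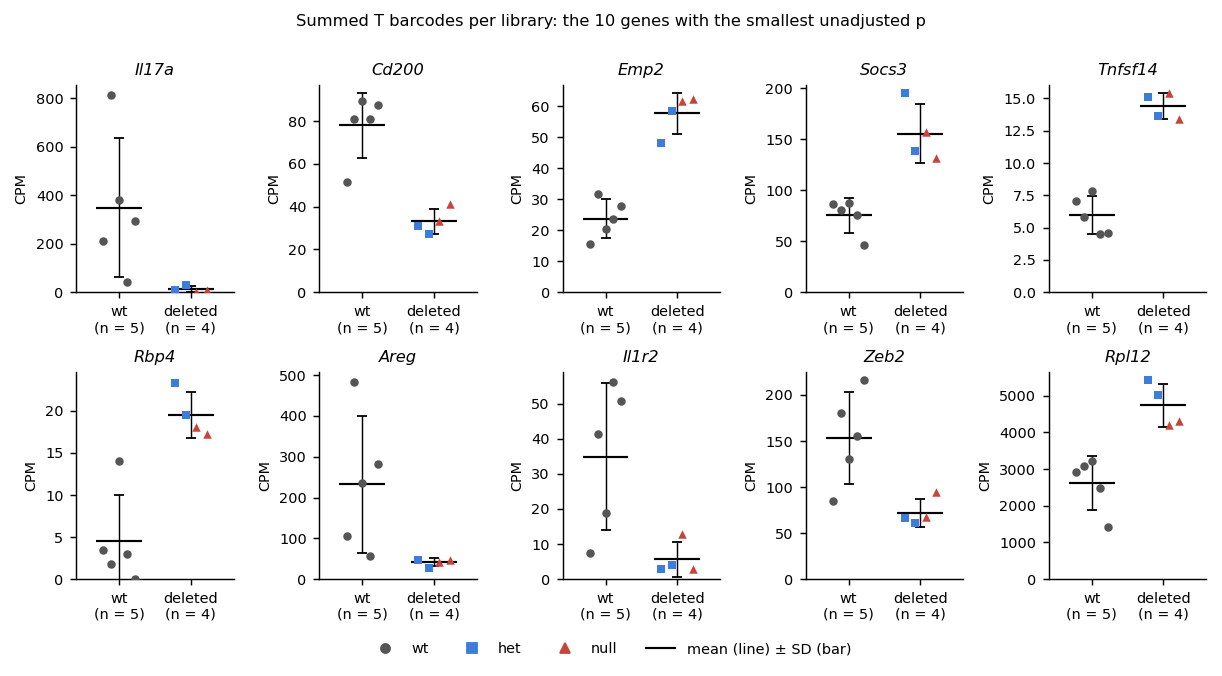
CPM in summed T barcodes per library for the 10 genes with the smallest unadjusted p (wt 5 libraries, grey circles; het blue squares; null red triangles; lines are means, bars are SD; each axis starts at 0). Il17a, Cd200, Areg, Il1r2 and Zeb2 have lower means on the deleted side and Emp2, Socs3, Tnfsf14, Rbp4 and Rpl12 higher means, with overlapping libraries for Il1r2 and Zeb2.

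Ribosomal protein genes made up most of what DESeq2 called higher on the deleted side, 18 of 23 genes. They are abundant, while DESeq2 gave no adjusted p to part of the genes, such as Emp2 (unadjusted p = 1.55e-05 by DESeq2). The make-up of its calls therefore cannot be read against all genes tested. The list of ribosomal protein genes was chosen after its values were seen, so it gets no test and is a description. Rpl12, a protein of the large ribosomal subunit, stood at 1410 to 3221 CPM in wt and 4201 to 5432 CPM in deleted libraries, without overlap (log2 difference 0.82 ± 0.19 (SE), adjusted p = 0.839 by edgeR and 0.00885 by DESeq2). Of 80 cytosolic ribosomal protein genes tested, 65 lay above and 15 below a log2 difference of 0, with a median of 0.35, and 28 (35%) had no overlap between the sides, all of them higher, against 1.35% of all genes tested. Rpsa and Rps6 of the small subunit had log2 differences of 0.52 and 0.59, and Rpl8 and Rpl13 of the large subunit 0.63 and 0.68. The DESeq2 calls also held Rack1, a scaffold protein of the ribosome (0.51), the translation elongation factors Eef1d and Eef1b2, Vps37b, and Odc1, the enzyme that starts polyamine synthesis.

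Together the 80 genes took 21.6, 20.6, 18.0, 17.7 and 16.6% of T UMIs in wt replicates 1 to 5, 25.3 and 22.4% in het and 21.7 and 21.9% in null libraries. The sides did not overlap, but wt replicate 1 lay next to null replicate 2. In B cell barcodes the share was 14.7 to 19.3% in wt and 18.5 to 22.4% in deleted libraries, and in endothelial barcodes 7.28 to 11.1% and 9.60 to 10.7%, with overlap in both. Depth per T barcode also differed between the sides, as given above, and its part in these shares was not tested. Ribosomal protein genes have many near-identical pseudogenes, so reads can be split between copies.

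**Figure D3:**
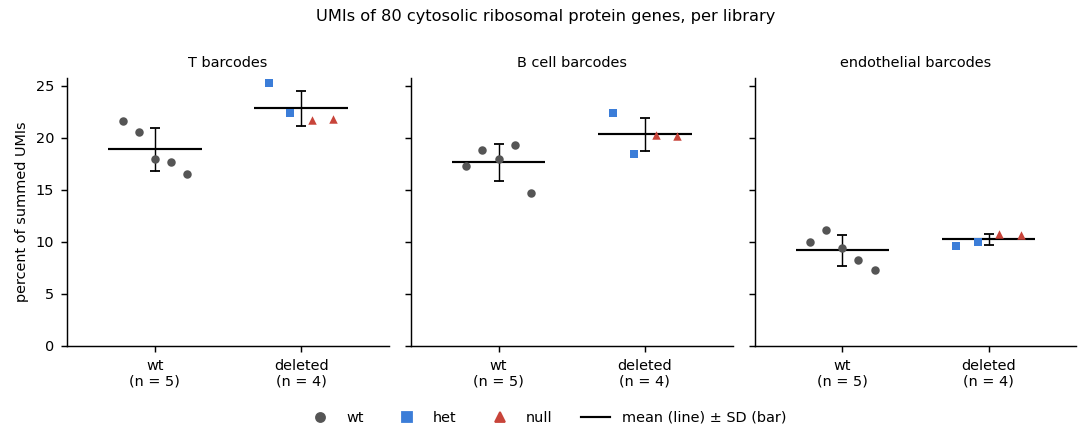
Percent of UMIs from 80 cytosolic ribosomal protein genes per library, in T, B cell and endothelial barcodes (wt grey circles, het blue squares, null red triangles; lines are means, bars are SD). In T barcodes the 4 deleted libraries lie at 21.7 to 25.3% and the 5 wt libraries at 16.6 to 21.6%, and in the other 2 cell types the sides overlap.

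The remaining lists of T cell genes each held 0 genes called by edgeR. The lists were chosen with earlier results of these data known. Their shares set beside those of all genes tested are therefore a description and no test. The checkpoint and age-associated list holds receptors, transcription factors (such as Tox and Maf) and other genes of chronically stimulated and aged T cells. It lay lowest, with 1 of 12 tested genes above and 11 below 0 and a median log2 difference of -0.47. With age as covariate its median was -0.56. Of the 12 genes 4 (33.3%) were lower at an unadjusted p under 0.05, against 2.29% of all genes tested. Macrophage marker genes, with 6 of 7 tested below 0 and a median of -0.63, and natural killer marker genes, with 4 of 5 below 0 and a median of -0.53, lay on the same side, and their part in this list was not tested. Havcr2 (TIM-3) stood at 17.6, 33.9, 21.9, 29.2 and 23.0 CPM in wt replicates 1 to 5, at 8.25 and 15.6 CPM in het and at 10.3 and 10.5 CPM in null libraries, without overlap (log2 difference -1.29 ± 0.30 (SE), unadjusted p = 0.00128). The library of 610 days, which entered no comparison but is deleted by both labels, held Havcr2 at 24.3 CPM without TMM scaling. The log2 difference of Havcr2 was -0.43 under a stricter quality limit (500 or more genes, 10% or less mitochondrial UMIs). It was -2.21 without barcodes holding markers of some other cell types, a filter that did not use the natural killer genes. Tnfrsf9 (4-1BB) stood at 41.7 to 128 and 25.8 to 37.3 CPM (log2 difference -1.08), again without overlap. With Cd200 these were 3 of the 12 tested genes (25%) that were lower without overlap, against 0.888% of all genes tested. Pdcd1 (PD-1) stood at 32.3 to 95 and 29.7 to 56.8 CPM (log2 difference -0.66, unadjusted p = 0.00677), with overlap. Lag3 had a log2 difference of -1.45, but wt replicate 4 at 409 CPM stood far above the other wt libraries at 6.26 to 73.7 CPM, and the deleted libraries lay at 18.0 to 22 CPM. Without wt replicate 4 the log2 difference of Lag3 was -0.81, and without null replicate 3 it was -0.51.

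The naive and recirculating list lay on the other side, with 11 of 12 genes above 0 and a median log2 difference of 0.31, which was 0.12 with age as covariate. The deleted libraries were on the whole younger, as the ages above show, and the part of age in these medians was not tested. Of the 12 genes 3 (25%) were higher at an unadjusted p under 0.05, against 2.41% of all genes tested. Lef1, a transcription factor of naive T cells, stood at 23.0 to 88.0 CPM in wt and 74.7 to 152 CPM in deleted libraries (log2 difference 0.66 ± 0.28 (SE), unadjusted p = 0.0387). Satb1, a chromatin organiser of T cell development, stood at 170 to 367 and 281 to 548 CPM (0.52, unadjusted p = 0.0448). Dapl1 stood at 0 to 23.1 and 29.2 to 54.1 CPM, without overlap (1.04, unadjusted p = 0.00970, and 1.79 in barcodes with at least 3 of the 4 T genes). Il7r, the receptor for the survival cytokine interleukin 7, stood at 59.9 to 470 and 191 to 649 CPM (0.74), with wide overlap. Without null replicate 3 the log2 difference of Il7r was -0.024.

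In the list of receptor and proximal signalling genes 14 of 17 lay above 0 (median 0.20), and Trbc1 had the largest log2 difference, 0.57. The cytotoxic list had 12 of 15 above 0 (median 0.15, and -0.12 with age as covariate) and 0 genes at an unadjusted p under 0.05. Klrk1 (NKG2D) had a log2 difference of 0.73 and Cst7, an inhibitor of granule proteases, of -0.46, both with overlap. Under the stricter quality limit Klrk1 turned to -0.097. The regulatory T list had 5 of 12 above 0 (median -0.29, and -0.14 with age as covariate). Its lowest value was that of Areg, while Foxp3 stood at 6.26 to 19.5 and 7.33 to 17.5 CPM (-0.44) and Ctla4 at 73.6 to 234 and 85.2 to 180 CPM (-0.38). Under the stricter quality limit the log2 difference of Foxp3 was -1.03.

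The tissue residency list was split, with 6 of 11 above 0 and a median of 0.07. Odc1 stood at 269 to 436 CPM in wt and 465 to 752 CPM in deleted libraries, without overlap (log2 difference 0.69 ± 0.19 (SE), adjusted p = 0.970 by edgeR and 0.0169 by DESeq2), and Itgae, the integrin that binds T cells to epithelium, at 4.61 to 31.3 and 5.85 to 10.3 CPM (-0.83). Among helper factors and cytokines 7 of 14 genes were high enough to test (median 0.08), and among chemokine receptors 7 of 12 (median 0.11). Cxcr3, the receptor for interferon-induced chemokines that is on both lists, stood at 18.4 to 40.7 and 25.8 to 99.4 CPM (1.08 ± 0.34 (SE), unadjusted p = 0.00949), with overlap.

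Interferon-stimulated genes lay below 0 in 9 of 10 cases (median -0.40), with 0 at an unadjusted p under 0.05. This rested partly on wt replicate 2, where Isg15 stood at 255 CPM against 23.5 to 46.2 CPM in the other wt and 26.8 to 62.4 CPM in the deleted libraries. Without wt replicate 2 the median of this list was 0.10, and with age as covariate it was -0.63. Immediate early and heat shock genes, which respond to tissue dissociation, had a median of 0.05 with 9 of 14 above 0. Proliferation genes had a median of 0.25 with 11 of 12 above 0, and Stmn1, a tubulin regulator of dividing cells, stood at 83.0 to 150 and 95.5 to 232 CPM (0.47). Over all alternatives, which include leaving out each library, the median stayed below 0 for the checkpoint list (-0.73 to -0.31) and the regulatory list (-0.51 to -0.04) and above 0 for the naive list (0.12 to 0.51), while the medians of the gamma delta and type 17 list (-0.96 to 0.00040) and of the signalling, cytotoxic, residency, helper, chemokine receptor, interferon, immediate early and proliferation lists took both signs.

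**Figure D4:**
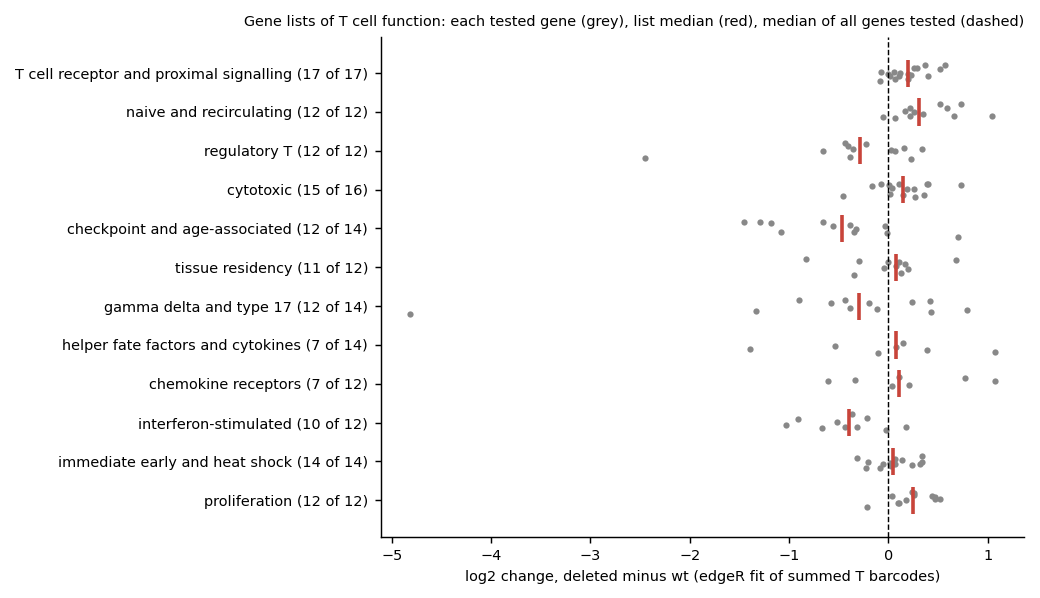
The log2 difference (deleted minus wt, edgeR on summed T barcodes) of each tested gene in the 12 lists of T cell genes; red marks are list medians, the dashed line is the median of all 9126 genes tested (-0.01), and numbers beside each name are genes tested of genes listed. List medians run from -0.47 (checkpoint and age-associated) to 0.31 (naive and recirculating), and the lowest point is Il17a at -4.82.

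Het and null libraries were also fitted as separate groups that share the wt libraries, over 10266 genes. edgeR called 0 genes (0%) in het against wt, 0 (0%) in null against wt and 0 (0%) in null against het, with 523, 453 and 550 genes at an unadjusted p under 0.05 and 14, 1 and 0 genes called by DESeq2. The log2 difference of Il17a was -4.62 for het and -5.03 for null against wt, and null against het was -0.41 ± 1.36 (SE, unadjusted p = 0.767). For Cd200 the differences were -1.27 and -1.07, for Socs3 1.02 and 0.95, and for Emp2 1.19 and 1.37. These 4 genes were chosen from the pooled comparison, so their direction in both contrasts was fixed by that choice.

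Cd4 and Cd8 T barcodes were fitted apart in libraries with at least 20 of them. Among barcodes with Cd4 and neither Cd8 gene, 6 libraries remained (3 wt, 3 deleted), and of 2815 genes tested edgeR called 0 (0%), with 75 at an unadjusted p under 0.05 and 0 called by DESeq2. Socs3 was among the 10 smallest p, at 59.7 to 87.9 CPM in wt and 161 to 211 CPM in deleted libraries (log2 difference 1.37). Lef1 stood at 54.7 to 76.9 and 148 to 250 CPM (1.43), with an adjusted p of 0.999 for both by edgeR. Alb was the first of these 10, at 9.98 to 87.9 and 249 to 300 CPM.

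Among barcodes with Cd8a or Cd8b1 and no Cd4, 8 libraries remained (4 wt, 4 deleted), and of 4263 genes tested edgeR called 0 (0%), with 96 at an unadjusted p under 0.05, while DESeq2 called 1, Thbs1. Thbs1, which encodes the matrix protein thrombospondin 1, stood at 113, 214, 37.0 and 69.1 CPM in wt replicates 1 to 4, at 7.98 and 7.92 CPM in het and at 0 and 13.3 CPM in null libraries. The deleted libraries lay below each wt library (log2 difference -3.85 ± 0.60 (SE), adjusted p = 0.0952 by edgeR and 0.00658 by DESeq2). In the T barcodes as a whole Thbs1 stood at 46.1 to 255 and 7.80 to 175 CPM, with overlap. Of the 10 smallest p among Cd8 barcodes, Apoa2 and Ttr are liver genes that were higher on the deleted side.

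Transcripts of other cells were present in T barcodes, and no doublets had been removed. Epididymis genes summed to 0 to 26639 CPM in wt and 325 to 10984 CPM in deleted libraries, stomach genes to 133 to 8695 and 95.7 to 3349 CPM, and kidney genes to 687 to 4890 and 864 to 3386 CPM. Lung epithelial genes summed to 111 to 3773 CPM over all 9 libraries and red cell genes to 1087 to 20951 CPM. Macrophage genes summed to 651 to 2474 and 248 to 1997 CPM, B cell genes to 133 to 3508 and 171 to 3534 CPM, and natural killer genes to 361 to 1257 and 285 to 571 CPM. Fibroblast genes summed to 85.8 to 482 CPM and neutrophil genes to 24.3 to 230 CPM over all 9. No marker gene of these lists was at 0 on either side. Barcodes that held 2 or more genes of the macrophage, B cell, endothelial, fibroblast or general epithelial list were also left out. The other lists played no part in this filter. Wt replicate 5 kept 5 barcodes and was not fitted, so 8 libraries remained. In this fit Il17a had a log2 difference of -4.61 and edgeR still called 0 genes.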

How the data were processed

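Per the submitters' processing notes the authors used Cell Ranger 2.1.1 and Seurat with mm10, while the matrix headers name Cell Ranger 3.0.2. The deposited files are matrices of whole-number UMI counts per gene and called barcode (10x Chromium 3' v3), with no normalization and no doublet removal. Groups came from the labels. A tissue library of 610 days (het by title, null by strain) and one of 647 days (null by title, no Nalcn allele in its strain) entered no comparison. The members and gene lists were chosen with earlier results of these data known. Every one of the 22 libraries was read, and T barcodes of 9 were used.

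UMIs were summed per library over 5402 T barcodes and tested with edgeR 4.0.16 (quasi-likelihood, TMM, filterByExpr, labelled sex as covariate, Benjamini-Hochberg at 0.05) in R 4.3.3. DESeq2 1.42.0, another scaling, filter, covariate, quality limit, T rule, Scrublet removal (scanpy 1.11.5, 860 T barcodes removed) and leaving out each library were alternatives. CPM are per 1000000 TMM-scaled UMIs. Shares were compared by exact two-sided permutation (SciPy 1.17.1) after thinning to 1000 UMIs. B cell barcodes held Cd79a and Cd79b, and endothelial barcodes Pecam1 and Cdh5, without T genes. The gene-by-gene fit was tested on simulated counts, and the thinning and the permutation test on made-up values. Named genes were 12 lists of T cell genes, 13 marker lists of other cells and, where under 10 genes were called, the 10 with the smallest unadjusted p. The ribosomal list, Il17a barcodes and Thbs1 in all T barcodes were added after values were seen. Replicates of a group differed by a chi-square of 3.82 to 30.7 per degree of freedom over 12 pairs, so none was merged. Coordinates are from GENCODE vM21 (289 of 290 genes found). No sequence carried a finding, so none is printed. Some members of the lists are not reported here.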

Additional observations from a re-analysis of the deposited data

Results flagged for a closer look

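In 12 of 96 groups of 4 or 5 libraries examined, the lowest or highest library lay far from the others by Dixon's test, where chance flags about 1 in 20, or 4.8. Wt replicate 4 stood apart for Lag3 at 409 CPM (the others 6.26 to 73.7) and for Cd4 at 128 CPM (37.6 to 50.3). Wt replicate 2 did so for Isg15 at 255 CPM (23.5 to 46.2) and Tnfrsf9 at 128 CPM (41.7 to 64.2). Wt replicate 5, with 27 T barcodes, was low for the Ccr7 share at 3.85% (9.23 to 10.3), which is 1 of 26 barcodes, for Socs3 at 46.1 CPM (75.7 to 87.7) and for Rack1 at 1235 CPM (1540 to 1611). Wt replicate 1 was low for Cd200 at 51.8 CPM (81.2 to 89.3), and wt replicate 3 was high for Rbp4 at 14.1 CPM (0 to 3.52). On the deleted side null replicate 2 was high for Il1r2 at 12.9 CPM (2.75 to 3.90) and low for Tcrg-C1 at 10.3 CPM (50.8 to 55.5), and null replicate 3 was low for Rpsa at 4401 CPM (4905 to 4985). The cause of these values was not tested.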

How the results depend on the processing

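Among T barcodes edgeR called 0 genes, and 53 without a filter on low counts, against 24 by DESeq2, which gave part of the genes no adjusted p. Leaving out each library gave 0 to 3 (3 without wt replicate 3, namely Hpx, Ahsg and Rbp4, and 1 without wt replicate 4, Il17a). The replicate numbers did not pair the libraries (correlations of deviations -0.0621 to 0.00895 over 5 pairs with the same number). With the replicate block in place of sex the counts were 1 (Il17a) for deleted, 1 for het and 6 for null against wt, 13 for null against het, 1 for Cd8 and 0 for Cd4 barcodes. Epididymal genes such as Defb20 were among these calls for null against wt and for null against het. DESeq2 called 14 for het and 1 for null against wt. Leaving out each library gave 0 to 0 for het against wt, 0 to 13 for null against wt and 0 to 3 for null against het, with both maxima without wt replicate 1 and made up mainly of epididymal genes. Among Cd4 barcodes the count was 44 without the filter, 7 under stricter quality, 20 with at least 3 T genes (Il17a and Thbs1 among them), 4 after Scrublet removal and 0 to 1 leaving out each library (Igkc without wt replicate 1). Among Cd8 barcodes the count was 95 without the filter and 1 each with age as covariate and by DESeq2 (Thbs1 both times). It was 0 to 1 leaving out each library (Thbs1 without wt replicate 3). With at least 3 T genes it was 5, namely Il17a, Igfbp5 and the epididymis markers Defb20, Spag11b and Gpx5. Of 99 such recounts 76 gave 0 genes, as the main fits did, and 23 called genes.

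A single share at the smallest possible exact permutation p (0.0159, or 0.100 in males) would stay above 0.05 after adjustment over 8 shares, so the lack of passing shares under the alternatives says nothing of stability. The difference in the T share was 0.561 points in males, where that in the Trdc share was -8.88. Without thinning it was -3.57 for Cd8a, -0.375 for Ccr7 and -0.337 for Foxp3 among Cd4 barcodes, and at 500 UMIs -0.187 for the latter. For Gzmk it was 0.241 at 500 UMIs, 1.09 under stricter quality and 0.878 in males. Leaving out each library gave -2.34 to -0.133 for the T share, -3.73 to -1.24 for Cd4, -0.363 to 2.55 for Cd8a, -0.401 to 0.0532 for Foxp3, 1.53 to 6.29 for Foxp3 among Cd4 barcodes, 1.12 to 3.77 for Ccr7, -2.34 to -0.499 for Gzmk and -6.65 to -2.61 for Trdc.

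Of 865 recomputed log2 differences of 40 named genes 13, of 6 genes, changed sign. Tcrg-C1 was 0.0050 with equal-age libraries summed and 0.067 by DESeq2. Il7r was -0.041 in males, Klrk1 -0.10 under stricter quality, and Cd8a -0.028 with age, -0.017 under stricter quality and -0.0062 without barcodes holding other markers. Leaving out each library gave -1.09 to 0.00040 for Trdc, -1.08 to 0.21 for Tcrg-C1, -0.024 to 1.10 for Il7r, -0.13 to 0.58 for Cd8a and -1.29 to 0.11 for Isg15. The fold change moved by over 1.5 times in 40 of the 865, in 16 genes. The causes were not tested. With 4 and 5 libraries, unknown animals and 27 T barcodes in the shallowest library, the precision of each difference was limited.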

Other observations

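The 2 tissue libraries with conflicting labels are given as values of single libraries, in CPM without TMM scaling. On that scale wt T barcodes held Il17a at 45.4 to 788 CPM, Cd200 at 52.2 to 88.0 CPM, Socs3 at 46.3 to 87.1 CPM and Emp2 at 15.7 to 30.7 CPM, and deleted ones 2.46 to 27.8, 26.0 to 39.2, 125 to 185 and 45.7 to 59.3 CPM. In the library of 610 days, which both its title (het) and its strain (null) place on the deleted side, 401 of 4323 passing barcodes were T barcodes, with Il17a at 2.70 CPM, Areg at 37.8 CPM, Cd200 at 12.1 CPM, Socs3 at 76.9 CPM, Emp2 at 6.74 CPM and 25.9% ribosomal protein UMIs. In the library of 647 days, null by title and without a Nalcn allele in its strain, 681 of 15974 were T barcodes, with Il17a at 51.2 CPM, Areg at 96.9 CPM, Cd200 at 48.5 CPM, Socs3 at 146 CPM, Emp2 at 44.8 CPM and 20.7% ribosomal protein UMIs. Trdc, of the gamma delta receptor, stood at 80.9 and 49.4 CPM in them, Cd4 at 102 and 40.2 CPM, Cd8a at 183 and 105 CPM and Havcr2 at 24.3 and 34.8 CPM.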
